A study of Mus musculus with 18 samples.

Results

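The data set described here is the difference between 2 changes: the change from epiblast-like cells (EpiLCs) to day 2 aggregates without cytokines in Tet1-/-, Tet2-/-, Tet3-/- triple knockout (TKO) cells, and the same change in wild-type cells. It draws on 8 of the 18 RNA-seq libraries of the series, 2 in each of 4 groups, and on all 16582 of 25239 genes that passed a filter on low counts. The wild-type cells were E14Tg2a, a male mouse embryonic stem cell (ESC) line. The TKO cells were made from that line by cutting out the coding part of all 3 Tet genes with CRISPR/Cas9, and the study used 1 clone per genotype for most experiments. All 8 libraries had the same history: ESCs held in 2i/LIF were turned into EpiLCs with Activin A and Fgf, sampled as day 0, and the EpiLCs were then placed in suspension in GK15, a serum replacement medium. At day 2 whole aggregates were collected without sorting. No BMP4, BMP8a, SCF, LIF or EGF was added to the aggregates compared here. The question was how loss of the TET proteins alters what happens to gene expression in the first days after EpiLCs leave Activin A and Fgf.

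TET proteins are enzymes that oxidise 5-methylcytosine in DNA, a step toward removal of the mark. Naive ESCs express a network of transcription factors that is shut down as cells pass to the formative state, which EpiLCs model and from which both somatic tissue and primordial germ cells (PGCs) can be formed. Without the cytokines that induce PGCs, wild-type cells are known to take somatic fates, of which neural is a common one. Promoters of many germline genes are kept silent in somatic cells by DNA methylation, placed by Dnmt3a and Dnmt3b with the help of Dnmt3l.

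Values for each gene are given as normalised counts, the fragment count divided by a size factor for the library, and changes are given on the log2 scale. The interaction log2 is the TKO change minus the wild-type change. A positive value means a more upward change in TKO than in wild-type cells, whether because the gene rose in TKO or fell in wild-type cells. The level in TKO aggregates can still lie below that in wild-type aggregates. The test was edgeR's quasi-likelihood F test, and each adjusted p is corrected by Benjamini and Hochberg's method for the 16582 genes. The libraries held between 12100902 and 41257861 counts. The ribosomal RNA locus Rn45s took between 33.09% and 47.59% of the counts in EpiLC libraries and between 16.2% and 31.3% at day 2, and leaving it out gave 690 and 372 interaction calls in place of the 689 and 372 described next. Set against counting noise, replicates differed by a chi-square per degree of freedom of 12.84 to 61.24, highest for the wild-type day 2 libraries. This value was scaled by totals that include Rn45s, so part of it can reflect Rn45s. The log2 difference of replicates 1 and 2 had its largest SD across genes between the TKO EpiLC libraries, 0.76 against 0.5214 to 0.6421 elsewhere. In bulk libraries of mixed aggregates, fewer cells of a type and less RNA per cell cannot be told apart.

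The labels were checked against the 3 Tet genes first, although reads on the ends of the transcripts that lie outside the deleted part are still counted. Tet3 held 821 and 1019 normalised counts in wild-type EpiLCs and 2558 and 1965 in wild-type aggregates, against 131 and 159 and 165 and 238 in the TKO groups. Tet1 held 6227 and 6036 normalised counts in wild-type EpiLCs, 2028 and 1754 in wild-type aggregates, 737 and 966 in TKO EpiLCs and 1937 and 1200.3 in TKO aggregates. The TKO level was below the wild-type level in EpiLCs in all libraries, and at day 2 the libraries of both genotypes overlapped. Tet1 thus had a positive interaction of 2.52 ± 0.45 (SE), adjusted p = 0.00195, with a wild-type change of -1.65 (adjusted p = 0.00108). Tet2 held 186 and 125 normalised counts in wild-type EpiLCs, 287 and 200.4 in wild-type aggregates, 31.7 and 102 in TKO EpiLCs and 355 and 405 in TKO aggregates. Both TKO aggregates thus lay above both wild-type aggregates, against what the label would give for a deleted gene, and neither Tet1 nor Tet2 told the genotypes apart as labelled at day 2. Whole-gene counts that include the undeleted ends do not check the deletion itself. Tet2 rose in TKO cells by 2.50 (adjusted p = 0.0033), and its interaction of 1.78 ± 0.65 (SE) did not pass (adjusted p = 0.0923).

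Marker genes were then compared with the labelled cell types. The EpiLC marker Fgf5 held 1839 and 2354 normalised counts in wild-type EpiLCs, 522 and 548 in wild-type aggregates, 2697 and 1666 in TKO EpiLCs and 601 and 577 in TKO aggregates. It fell in both genotypes (wild-type -1.92, TKO -1.90), and its interaction of 0.02 ± 0.64 (SE) did not pass (adjusted p = 1). Dnmt3b, a de novo methyltransferase abundant in EpiLCs, fell in both genotypes (wild-type -1.60, TKO -1.97), with an interaction of -0.37 (adjusted p = 0.594). Pou5f1 (Oct4) was still at 3786 and 8819 in wild-type aggregates and at 9806 and 10802 in TKO aggregates. T (Brachyury), a mark of the primitive streak, held 6.43 and 5 normalised counts in wild-type EpiLCs, 65.3 and 66 in wild-type aggregates, 14.9 and 3.3 in TKO EpiLCs and 76.8 and 148 in TKO aggregates. T rose in both genotypes, by 3.60 and 3.57, with an interaction of -0.04 (adjusted p = 1). Other markers already differed in EpiLCs, in both directions. Wild-type and TKO EpiLCs held 42663 and 48315 against 18018 and 16870 for Dnmt3b and 7231 and 5424 against 2953 and 2188 for Pou3f1. TKO EpiLCs were higher for Otx2 (1833 and 3579 against 1158 and 1718). The same held for the mesoderm marker Eomes (696 and 606 against 90 and 92.3) and the endoderm marker Gata4 (107 and 37.4 against 4.82 and 3.89). Other markers of these types were divided. Mixl1, Sox17 and Gata6 were higher in TKO EpiLCs too, and T and Sox7 overlapped. Lower in TKO EpiLCs were the mesoderm marker Tbx6 (26.8 and 11 against 33.7 and 35.6) and the endoderm marker Foxa2 (5.95 and 0 against 12.9 and 7.23).

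Loss of the TET proteins went with a different course of many genes over these days. At an adjusted p below 0.05, 1009 genes (6.08%) had a positive and 1026 (6.19%) a negative interaction. With a log2 beyond 2 in addition, 689 genes (4.16%) had a positive and 372 (2.24%) a negative interaction. The median over all genes was -0.03. For all 1061 genes beyond 2, the 4 differences between a day 2 and an EpiLC library of TKO cells lay apart from the 4 wild-type differences. Since the genes were called in these same libraries, this separation is largely set by the choice and is no separate support. In 205 of the 689 and 36 of the 372, at least 1 group had 3 counts or fewer in both libraries, and in 185 of the 205 this was the wild-type day 2 group, so that the size of their interaction is uncertain.

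**Figure D1:**
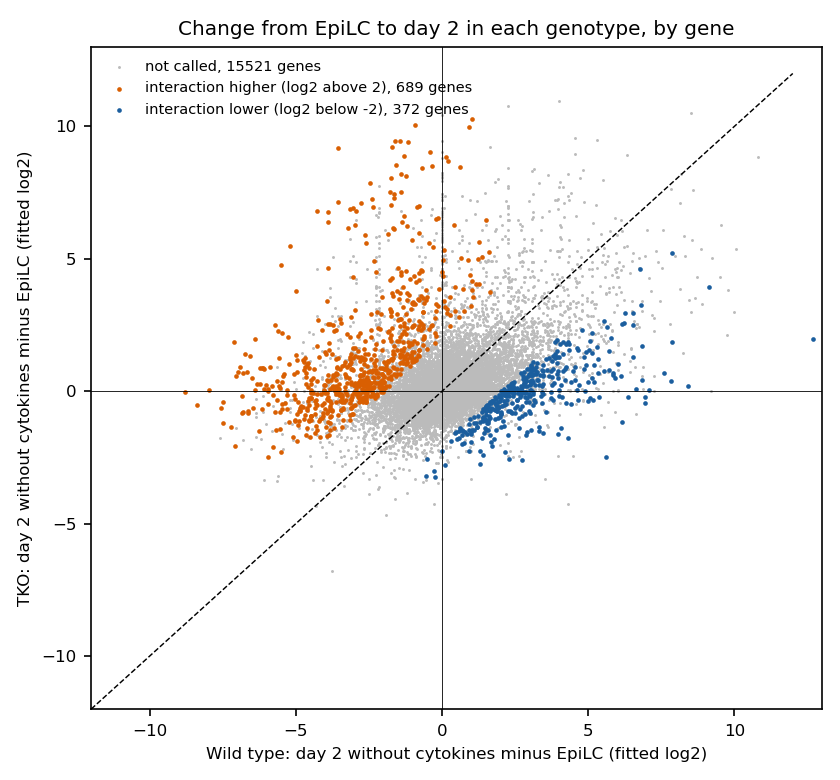
Each point is 1 of 16582 genes, placed by its fitted log2 change from EpiLCs to day 2 in wild-type (horizontal) and TKO cells (vertical), with the dashed line marking equal change. The 689 genes with a positive interaction beyond 2 (orange) lie above the line, mostly where wild-type cells lost expression, and the 372 with a negative one (blue) lie below it, mostly where wild-type cells gained expression.

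Wild-type cells changed more genes than TKO cells did. In wild-type cells 3090 genes (18.6%) rose and 2606 (15.7%) fell, and 1127 (6.8%) and 774 (4.67%) did so by a log2 beyond 2. In TKO cells 1682 (10.1%) rose and 1413 (8.52%) fell, of which 784 (4.73%) and 96 (0.579%) were beyond 2. The TKO counts depend on single libraries: 492 genes rose beyond 2 without TKO EpiLC replicate 2 and 476 without TKO day 2 replicate 2, and 50 fell without the latter.

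The 1127 genes that rose beyond 2 in wild-type cells had a median change of 3.10 there and of 1.31 in TKO cells. Of them, 408 (36.2%) were also called as rising in TKO cells at an adjusted p below 0.05, whatever the size (background 10.1%). The 774 that fell beyond 2 in wild-type cells had medians of -3.12 and -0.30. By the same limit 88 of them (11.4%) were called as falling in TKO cells (background 8.52%). The interaction had an adjusted p below 0.05 in 455 of them, whatever its size. Seen from the TKO side, 291 (37.1%) of the 784 rises beyond 2 were also called as rises in wild-type cells (background 18.6%). Of the 96 falls beyond 2, 52 (54.2%) were called as falls there too (background 15.7%). Across all genes the changes in both genotypes, which share no library, had a Pearson correlation of 0.3494 and a Spearman correlation of 0.4063. Genes are not independent replicates, and these values are descriptions.

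Genes with a positive interaction were most often called as falling in wild-type cells alone. Of the 689, 380 (55.2%) fell in wild-type cells and were not called in TKO cells, with median changes of -3.40 and 0.17. A further 170 (24.7%) rose in TKO cells only by the calls, with medians of 3.62 in TKO and -0.94 in wild-type cells, and 87 (12.6%) fell in one and rose in the other genotype. Of the 372 with a negative interaction, 269 (72.3%) rose in wild-type cells (median 2.85) and were not called in TKO cells (median -0.04), and 42 (11.3%) rose in both, by a median of 4.33 in wild-type and 1.79 in TKO cells. The median difference between TKO and wild-type cells for the 689 was -0.01 in EpiLCs, with quartiles of -0.89 and 0.62 and 427 of them within a log2 of 1, and 3.72 at day 2, and the difference was larger in size at day 2 for 639 of 689 genes. For the 372 the median was 0.93 in EpiLCs and -1.92 at day 2, and the difference was larger in size at day 2 for 267 and smaller for 105. Both sets were chosen by the interaction, which is the day 2 difference minus the EpiLC difference. A large difference at day 2 is therefore largely set by that choice.

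**Figure D2:**
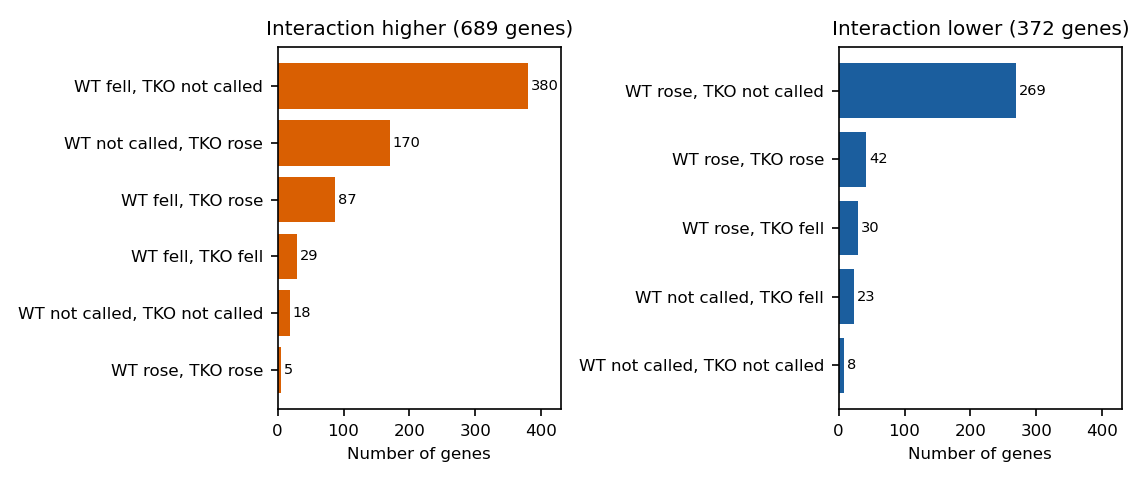
Bars give the number of genes with a positive (left) and negative (right) interaction beyond 2, split by the call of the change in each genotype at an adjusted p below 0.05. The longest bars, 380 and 269 genes, are those in which only the wild-type change was called.

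The 10 highest interactions among genes with a mean of at least 50 normalised counts lay between 5.96 and 7.81. Eif4a3l1, a retrogene copy of the RNA helicase gene Eif4a3, led with 32.1 and 15.6 normalised counts in wild-type EpiLCs, 4.87 and 6.22 in wild-type aggregates, 0 and 5.5 in TKO EpiLCs and 145 and 196 in TKO aggregates (interaction 7.81 ± 0.92 (SE), adjusted p = 0.000113). Calcoco2, which encodes an autophagy receptor, held 22.5 and 21.7 normalised counts in wild-type EpiLCs, 5.85 and 3.11 in wild-type aggregates, 15.9 and 19.8 in TKO EpiLCs and 480.5 and 339 in TKO aggregates (interaction 6.77 ± 0.62 (SE), adjusted p = 1.23e-05). For both, the TKO aggregates lay above all other libraries, and a like pattern was seen for Aldoart2 (153 and 279 there, interaction 6.04), a retrogene of aldolase. Retrogenes share sequence with their parent genes, and the counting may split or lose their fragments. The call of Aldoart2 was lost without wild-type EpiLC replicate 1 (adjusted p = 0.0686).

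The next genes were present in EpiLCs of both genotypes and low only in wild-type aggregates. Nphs1, the gene of the slit diaphragm protein nephrin, held 1084 and 679 normalised counts in wild-type EpiLCs, 9.75 and 10.9 in wild-type aggregates, 717 and 1672 in TKO EpiLCs and 1875 and 1029.7 in TKO aggregates (interaction 6.61 ± 1.10 (SE), adjusted p = 0.00124). Its neighbour Kirrel2 on chromosome 7 (interaction 5.96, adjusted p = 0.015) had 601 and 367 in wild-type EpiLCs and 6.82 and 7.77 in wild-type aggregates against 308 and 748 in TKO EpiLCs and 635 and 431 in TKO aggregates. The Kirrel2 call was lost without either wild-type day 2 library or without TKO EpiLC replicate 1, with adjusted p-values over the 8 such fits between 0.0213 and 0.0678. Morc1, needed in male germ cells to silence transposons, held 618 and 395 normalised counts in wild-type EpiLCs, 19.5 and 4.66 in wild-type aggregates, 349 and 653 in TKO EpiLCs and 785 and 809.8 in TKO aggregates (interaction 6.04 ± 0.68 (SE), adjusted p = 5.9e-05). Slc5a11, a sugar and inositol transporter, went from 337 and 234 to 4.87 and 3.88 in wild-type cells and from 299.6 and 252 to 316 and 279 in TKO cells (interaction 6.04). Arl14epl had an interaction of 6.02, with 0 and 4.66 in wild-type aggregates and 108 and 156 in TKO aggregates, and the value ran from 5.17 to 10.59 over the alternative fits. The last of the 10, Nr0b1 and Rhox5, belong to groups described next.

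**Figure D3:**
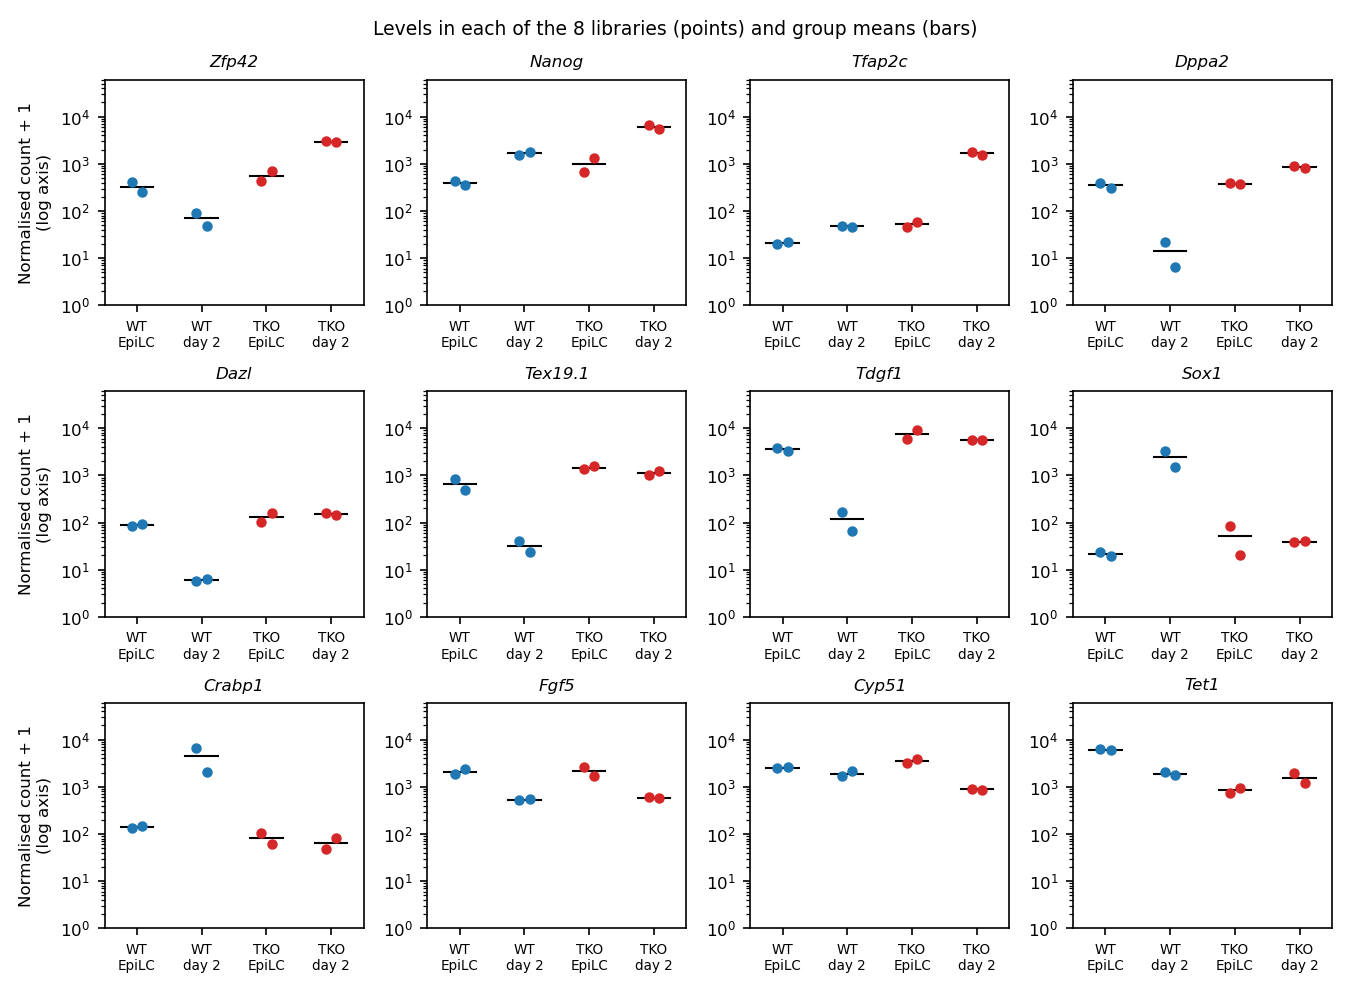
Normalised counts plus 1 on a log axis for 12 genes in each of the 8 libraries (points), with the mean of each group as a bar, wild-type in blue and TKO in red. Dppa2, Dazl, Tex19.1 and Tdgf1 are low only in wild-type aggregates, Tfap2c is high only in TKO aggregates, Sox1 and Crabp1 are high only in wild-type aggregates, and Fgf5 falls in both genotypes.

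Most naive pluripotency genes rose in TKO cells. Of 16 genes, 14 had a positive interaction at an adjusted p below 0.05 (background 6.08%) and none a negative one, with a list median of 3.74. The median change was -0.74 in wild-type and 2.53 in TKO cells. In TKO cells 13 rose (background 10.1%), while in wild-type cells 7 fell (background 15.7%) and 1 rose (background 18.6%). Zfp42 (Rex1), a classic marker of naive ESCs, held 408 and 251 normalised counts in wild-type EpiLCs, 89.7 and 48.2 in wild-type aggregates, 422 and 694 in TKO EpiLCs and 3020.1 and 2915 in TKO aggregates. It fell in wild-type cells (change -2.20) and rose in TKO cells (change 2.40) (interaction 4.60 ± 0.44 (SE), adjusted p = 1.79e-05). Nr0b1 (Dax1), a nuclear receptor of the naive network, held 315 and 88.9 normalised counts in wild-type EpiLCs, 18.5 and 10.1 in wild-type aggregates, 82.3 and 444 in TKO EpiLCs and 1575 and 1416 in TKO aggregates, and Sox15 held 108 and 109.5 normalised counts in wild-type EpiLCs, 14.6 and 9.32 in wild-type aggregates, 92.3 and 225 in TKO EpiLCs and 423 and 317 in TKO aggregates. Both ended at their highest level in TKO aggregates and their lowest in wild-type aggregates, with interactions of 6.22 ± 0.94 (SE) and 4.36 ± 0.53 (SE), and adjusted p-values of 0.000612 and 0.000105.

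Fgf4, the Fgf ligand made by the pluripotent epiblast, and Dppa5a differed from these in that they were kept rather than gained. Fgf4 held 2684 and 2610.4 normalised counts in wild-type EpiLCs, 77 and 54.4 in wild-type aggregates, 4054 and 4774 in TKO EpiLCs and 2852 and 2759 in TKO aggregates. Its interaction of 4.62 ± 0.48 (SE), adjusted p = 3.13e-05 came with a change of -5.29 in wild-type cells, while the TKO change of -0.67 did not pass (adjusted p = 0.146). Dppa5a, abundant in ESCs, held 15902 and 11617 normalised counts in wild-type EpiLCs, 355 and 442 in wild-type aggregates, 12724 and 25783 in TKO EpiLCs and 19329 and 16208 in TKO aggregates (interaction 4.92 ± 0.54 (SE), adjusted p = 5.06e-05). Nanog was named after its values were seen, as the member that did not follow the list: it held 422 and 359 normalised counts in wild-type EpiLCs, 1577 and 1782 in wild-type aggregates, 665 and 1343 in TKO EpiLCs and 6585 and 5398 in TKO aggregates. It rose in both genotypes, by 2.16 and 2.56, with an interaction of 0.41 ± 0.38 (SE, adjusted p = 0.553). Klf5, with an interaction of 1.25, was the other member that did not pass (adjusted p = 0.0579).

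The TKO EpiLC libraries differed in these genes, and their list sums were 24446 and 45418 normalised counts against 26700 and 19593 in wild-type EpiLCs. Sums were 3948 and 4237 in wild-type aggregates and 62731 and 55556 in TKO aggregates, so the day 2 groups did not overlap. Without TKO EpiLC replicate 2, 14 of 16 passed, as in all libraries. The lowest count, 9, was reached without wild-type EpiLC replicate 1.

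Core pluripotency genes, which mark both naive and formative cells, were divided. Of 10, 4 had a positive interaction (background 6.08%) and none a negative one (background 6.19%), and the list median was 0.81. The 4 were Dppa2, Dppa4, L1td1 and Utf1. Dppa2 and Dppa4 encode a pair of partner proteins that bind CpG-rich promoters and protect them from methylation, and the genes are neighbours on chromosome 16. Dppa2 held 387 and 308 normalised counts in wild-type EpiLCs, 20.5 and 5.44 in wild-type aggregates, 387 and 368 in TKO EpiLCs and 915 and 804 in TKO aggregates, and Dppa4 held 1226 and 1172 normalised counts in wild-type EpiLCs, 80.9 and 24.9 in wild-type aggregates, 1273 and 1356 in TKO EpiLCs and 1155 and 1072 in TKO aggregates. Wild-type aggregates lay far below the other 3 groups for both, with interactions of 5.92 ± 0.43 (SE) and 4.24 ± 0.46 (SE), and adjusted p-values of 4.5e-06 and 5.05e-05. L1td1, which encodes an RNA-binding protein derived from a LINE-1 element, held 9645 and 9376 normalised counts in wild-type EpiLCs, 1385 and 1834 in wild-type aggregates, 5095 and 5312 in TKO EpiLCs and 5042 and 5785 in TKO aggregates (interaction 2.55 ± 0.39 (SE), adjusted p = 0.000675). Utf1, a chromatin protein of pluripotent cells, fell in both genotypes, more in wild-type (-3.69) than in TKO cells (-1.37), from 9379 and 8299.9 to 469.8 and 848 and from 7728 and 10335 to 3657 and 3399 (interaction 2.32 ± 0.45 (SE), adjusted p = 0.00366). Pou5f1 had an interaction of 0.63 ± 0.59 (SE) that did not pass (adjusted p = 0.553).

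Formative and primed genes moved in both directions, with 2 of 16 positive (background 6.08%), 3 negative (background 6.19%) and a median of -0.21. Grhl2, an epithelial transcription factor, held 1072 and 984 normalised counts in wild-type EpiLCs, 176 and 218 in wild-type aggregates, 1115 and 951 in TKO EpiLCs and 1138 and 1168 in TKO aggregates, lower only in wild-type aggregates (interaction 2.48 ± 0.31 (SE), adjusted p = 0.000119). Tcf15, a factor of the exit from naive pluripotency, went from 771 and 359 to 21.4 and 13.2 in wild-type cells and from 824 and 2070.5 to 384 and 406 in TKO cells, falling in both (interaction 3.08 ± 0.64 (SE), adjusted p = 0.00539). Car14, a carbonic anhydrase, held 445 and 465 normalised counts in wild-type EpiLCs, 824 and 929 in wild-type aggregates, 113 and 178 in TKO EpiLCs and 47.7 and 28.8 in TKO aggregates. It rose in wild-type and fell in TKO cells (interaction -2.92 ± 0.55 (SE), adjusted p = 0.00317). The other negative calls were Sox4 and Sox3, and that of Sox3, a neural and epiblast Sox factor (interaction -1.87, adjusted p = 0.0303), was lost in 7 of the 8 fits that left out 1 library, at adjusted p-values up to 0.217. Between 1 and 2 negative calls were left in each of those 8 fits.

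Early PGC genes were gained in TKO cells. Of 15 tested genes, 9 had a positive (background 6.08%) and none a negative interaction (background 6.19%). The median was 2.15, and all 15 values were above 0. In TKO cells 11 rose (background 10.1%), and in wild-type cells 3 rose (background 18.6%) and 6 fell (background 15.7%). Tfap2c (AP2γ), a transcription factor of PGC specification, held 19.3 and 21.1 normalised counts in wild-type EpiLCs, 47.8 and 45.1 in wild-type aggregates, 45.6 and 57.2 in TKO EpiLCs and 1789 and 1544 in TKO aggregates. It rose in both genotypes, by 1.22 in wild-type and 5.01 in TKO cells, and only TKO aggregates reached over 1000 (interaction 3.79 ± 0.42 (SE), adjusted p = 5.99e-05). Prdm1 (Blimp1), the repressor that starts the PGC programme, held 73.9 and 53.9 normalised counts in wild-type EpiLCs, 40.9 and 32.6 in wild-type aggregates, 58.5 and 106 in TKO EpiLCs and 611 and 381 in TKO aggregates (interaction 3.31 ± 0.52 (SE), adjusted p = 0.00085). Prdm14, the third of these factors, held 3.21 and 0.56 normalised counts in wild-type EpiLCs, 2.92 and 6.99 in wild-type aggregates, 18.8 and 70.4 in TKO EpiLCs and 788 and 740.1 in TKO aggregates. Prdm14 rose in TKO cells (adjusted p = 2.01e-05), and since wild-type EpiLCs had 3 counts or fewer, no fitted interaction is given, and it did not pass (adjusted p = 0.395).

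Other genes of the list followed different routes. Dppa3 (Stella), a marker of PGCs, held 45 and 36.7 normalised counts in wild-type EpiLCs, 1.95 and 4.66 in wild-type aggregates, 5.95 and 22 in TKO EpiLCs and 105 and 58.9 in TKO aggregates, highest in TKO aggregates and lowest in wild-type aggregates (interaction 6.01 ± 0.79 (SE), adjusted p = 0.000189). Rhox5, an X-linked homeobox gene under methylation control, held 904 and 1159.6 normalised counts in wild-type EpiLCs, 15.6 and 23.3 in wild-type aggregates, 84.3 and 79.2 in TKO EpiLCs and 77.8 and 141 in TKO aggregates (interaction 6.05 ± 0.47 (SE), adjusted p = 4.5e-06). Its wild-type EpiLC level was the highest of the 4 groups, with a wild-type change of -5.66 beside a TKO change of 0.40 that did not pass (adjusted p = 0.387). Elf3, an epithelial Ets factor, went from 185 and 189.6 to 84.8 and 125 in wild-type cells and from 249 and 389 to 1019 and 892 in TKO cells (interaction 2.35 ± 0.34 (SE), adjusted p = 0.000455). Between 7 and 8 of the 9 calls were counted when 1 library was left out.

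Late germline genes, which act in meiosis and in gonadal germ cells, were lost from wild-type cells and kept in TKO cells. Of 16 genes, 13 had a positive and none a negative interaction (background 6.08%), with a median of 3.18. The median change was -2.80 in wild-type cells, where 12 fell (background 15.7%). It was -0.05 in TKO cells, where 3 rose (background 10.1%) and 1 fell (background 8.52%). Dazl, an RNA-binding protein of germ cells, held 81.9 and 93.9 normalised counts in wild-type EpiLCs, 4.87 and 5.44 in wild-type aggregates, 100.2 and 156 in TKO EpiLCs and 157 and 147 in TKO aggregates. Sohlh2, a transcription factor of early gametogenesis, held 206 and 221 normalised counts in wild-type EpiLCs, 7.8 and 5.44 in wild-type aggregates, 176 and 248 in TKO EpiLCs and 102 and 136 in TKO aggregates. Both wild-type aggregates lay below all other libraries for these 2 genes, and Sohlh2 was the one that also fell in TKO cells (-0.85, adjusted p = 0.0489), with interactions of 4.25 ± 0.84 (SE) and 4.11 ± 0.48 (SE), and adjusted p-values of 0.00419 and 8.55e-05. Slc25a31, the germline ADP/ATP carrier, went from 75.5 and 120.1 to 8.77 and 3.88 in wild-type cells and from 43.7 and 50.6 to 38.4 and 51.7 in TKO cells (interaction 3.85 ± 0.74 (SE), adjusted p = 0.00354). Taf7l, a germ cell form of a general transcription factor, held 45 and 56.7 in wild-type EpiLCs and had no count in either wild-type aggregate, against 211 and 124 in TKO EpiLCs and 159 and 173 in TKO aggregates. Against a floor of 3 counts per library, Taf7l fell at least 19.35-fold in wild-type cells and stood at least 63.14-fold higher in TKO than in wild-type aggregates (interaction adjusted p = 0.000107). The count of 13 was between 8 and 12 when 1 library was left out, and 8 was reached without wild-type EpiLC replicate 2 and without wild-type day 2 replicate 2.

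Since methylation of germline promoters depends on their CpG content, the 250 bases before the start of these 4 genes are shown, in GRCm38.p6 from RefSeq, 5′ to 3′ on the strand of the gene, with each CpG in capitals. Sox1, the lowest interaction among genes with a mean of at least 50 normalised counts and no group at 3 counts or fewer, is shown for comparison.
Sohlh2, chr3:55181794-55182043, plus strand
Sohlh2: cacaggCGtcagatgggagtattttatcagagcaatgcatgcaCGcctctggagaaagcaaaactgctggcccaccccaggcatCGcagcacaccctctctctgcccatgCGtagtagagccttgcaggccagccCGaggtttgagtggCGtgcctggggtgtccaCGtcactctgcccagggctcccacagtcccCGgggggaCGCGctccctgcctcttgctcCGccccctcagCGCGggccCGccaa
Taf7l, chrX:134476491-134476740, minus strand
Taf7l: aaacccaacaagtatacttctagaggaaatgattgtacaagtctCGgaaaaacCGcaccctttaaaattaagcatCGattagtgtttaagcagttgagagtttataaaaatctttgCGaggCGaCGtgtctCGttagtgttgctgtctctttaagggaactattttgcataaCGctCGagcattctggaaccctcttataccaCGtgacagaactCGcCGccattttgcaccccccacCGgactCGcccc
Slc25a31, chr3:40708621-40708870, plus strand
Slc25a31: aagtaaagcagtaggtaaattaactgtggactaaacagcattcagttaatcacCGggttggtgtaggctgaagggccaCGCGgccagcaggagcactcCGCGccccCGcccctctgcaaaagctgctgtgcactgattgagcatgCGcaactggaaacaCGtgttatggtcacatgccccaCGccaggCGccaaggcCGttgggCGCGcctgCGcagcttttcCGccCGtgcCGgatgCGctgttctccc
Dazl, chr17:50293621-50293870, minus strand
Dazl: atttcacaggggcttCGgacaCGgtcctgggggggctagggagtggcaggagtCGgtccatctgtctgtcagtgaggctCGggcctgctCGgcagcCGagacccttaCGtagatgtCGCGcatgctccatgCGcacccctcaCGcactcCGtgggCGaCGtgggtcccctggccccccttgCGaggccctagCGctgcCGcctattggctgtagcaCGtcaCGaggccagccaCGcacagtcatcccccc
Sox1, chr8:12395269-12395518, plus strand
Sox1: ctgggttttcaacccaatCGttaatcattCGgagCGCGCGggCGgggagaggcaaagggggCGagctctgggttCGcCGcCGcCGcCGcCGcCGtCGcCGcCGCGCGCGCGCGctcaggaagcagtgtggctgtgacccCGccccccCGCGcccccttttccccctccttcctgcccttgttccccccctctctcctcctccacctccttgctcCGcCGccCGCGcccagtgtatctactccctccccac
These windows held 14, 14, 18, 20 and 29 CpGs in the order shown. The letters CACGTG, a palindrome and therefore the same on both strands, were in the windows of Taf7l and Slc25a31 (once each) and in none of the other 3. Over the whole table window of 300 bases, 250 before to 50 after the start, 7 of the 15 late germline genes with an entry (46.7%) and 7 of the 14 piRNA genes with one (50%) held CACGTG, against 8.09% of 27025 genes in the table and 11.2% of 12819 tested genes with an entry. Their median CpG numbers were 21 and 17.5 per 300 bases, against 7 in the whole table and 19 among tested genes. Ddx4, which held CACGTG, is counted in both lists, so the shares are not separate. A gene with several entries was counted if any of its windows held the letters, and no other gene list was counted. A match describes the letters and is no evidence of binding.

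Genes of the piRNA pathway, which silences transposons in germ cells through Piwi proteins and their cofactors, followed the late germline genes. Of 16, 8 had a positive interaction (background 6.08%) and 1 a negative one (background 6.19%). The median was 2.77, or 2.28 with the 1 gene without counts in a group set at its bound. In wild-type cells 12 fell (background 15.7%) and 1 rose (median -2.995), and in TKO cells 3 fell (background 8.52%) and none rose (median -0.11). Tex19.1, which acts against LINE-1 elements, held 824 and 490.3 normalised counts in wild-type EpiLCs, 40 and 22.5 in wild-type aggregates, 1347 and 1544 in TKO EpiLCs and 1026 and 1208 in TKO aggregates (interaction 3.96 ± 0.43 (SE), adjusted p = 4.82e-05). Tdrd12, a Tudor protein of secondary piRNA production, held 1179 and 903 normalised counts in wild-type EpiLCs, 61.4 and 25.6 in wild-type aggregates, 1017 and 1667 in TKO EpiLCs and 1041 and 843 in TKO aggregates (interaction 4.03 ± 0.42 (SE), adjusted p = 3.6e-05). Mael went from 297 and 357 to 18.5 and 9.32 in wild-type cells and from 642 and 1085 to 432 and 369 in TKO cells (interaction 3.42 ± 0.44 (SE), adjusted p = 0.000238). The Piwi gene Piwil2 (Mili) went from 156 and 143 to 17.5 and 14.8 and from 446 and 468 to 321 and 353 (interaction 2.7 ± 0.41 (SE), adjusted p = 0.000662). In each of these 4 genes both wild-type aggregates lay below all other libraries. The negative call was Tdrkh, with 51.4 and 65.6 normalised counts in wild-type EpiLCs, 145 and 119.6 in wild-type aggregates, 149 and 91.3 in TKO EpiLCs and 101 and 102 in TKO aggregates (interaction -1.46, adjusted p = 0.0258), and it was lost in 5 of the 8 fits that left out 1 library (adjusted p up to 0.119).

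Two-cell-like genes, active in the early embryo and in a rare state of ESC cultures, were at low levels everywhere except in TKO aggregates. Of 12 tested genes, 7 had a positive interaction (background 6.08%) and none a negative one (background 6.19%). The listed genes together held 22 to 72 normalised counts in wild-type libraries, 1 and 15 in TKO EpiLCs and 569 and 609 in TKO aggregates. Zscan4d held 20.9 and 16.1 normalised counts in wild-type EpiLCs, 5.85 and 11.7 in wild-type aggregates, no count in TKO EpiLCs and 120.4 and 129 in TKO aggregates. Against a floor of 3 counts per library it rose at least 39.67-fold in TKO cells (interaction adjusted p = 0.000102). Zscan4a reached 143 and 178, Zscan4f 51.9 and 55.3 and Zscan4b 35.3 and 32.4 in TKO aggregates, with at most 19.3 in any other library and adjusted p-values of 0.000105, 0.000385 and 0.000981. The list median was 6.30, or 5.19 with the 7 genes without counts in a group set at their bounds. Without wild-type EpiLC replicate 2, 4 genes passed, and the call of Zscan4b was lost (adjusted p = 0.16). Zscan4 and Usp17l genes lie in clusters of near-identical copies, so the count of each single copy is uncertain.

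**Figure D4:**
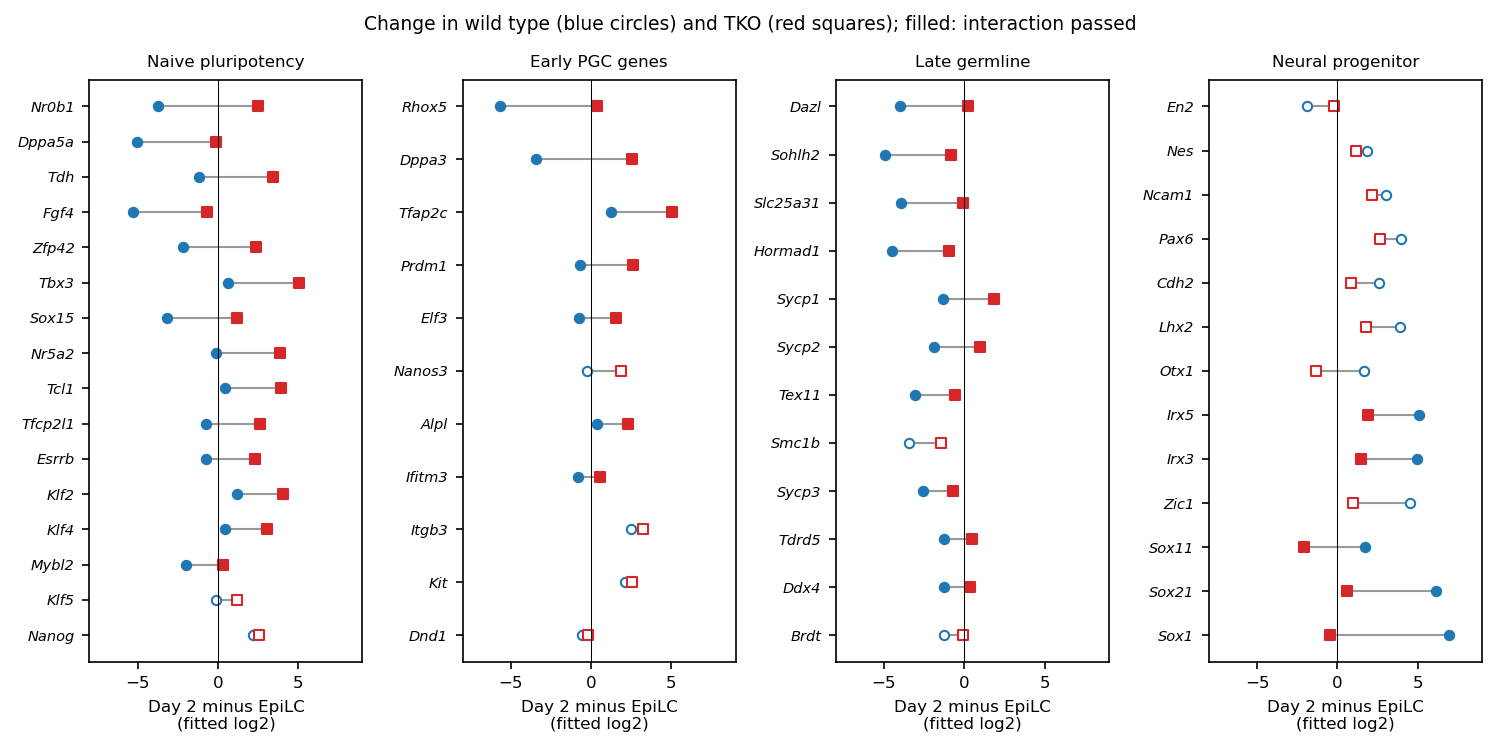
Fitted log2 change from EpiLCs to day 2 in wild-type (blue circles) and TKO cells (red squares) for members of 4 gene lists, ordered by interaction, with filled symbols where the interaction passed an adjusted p of 0.05. Genes with a group at 3 counts or fewer in both libraries are left out. Naive and early PGC genes lie mostly right of 0 in TKO cells, late germline genes lie left of 0 in wild-type and near 0 in TKO cells, and neural genes other than En2 lie further right in wild-type cells.

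Neural progenitor genes moved the opposite way. Of 22 genes, 17 rose in wild-type cells (background 18.6%) and 6 in TKO cells (background 10.1%). The median changes were 4.23 and 1.05. In the interaction 6 were negative (background 6.19%) and none positive, with a median of -3.30, or -2.82 with the 3 genes without counts in a group set at their bounds. The median was -1.49 without wild-type day 2 replicate 1.

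Sox1, the earliest specific marker of neural commitment, had the lowest interaction among the genes named by size. It held 22.5 and 18.3 normalised counts in wild-type EpiLCs, 3293 and 1498 in wild-type aggregates, 83.3 and 19.8 in TKO EpiLCs and 37.4 and 39.6 in TKO aggregates. Both wild-type aggregates lay above 1000 while no other library reached 100, and TKO cells had a change of -0.45 that did not pass (interaction -7.40 ± 0.75 (SE), adjusted p = 3.03e-05). Sox21, another Sox factor of neural progenitors, held 14.5 and 5.56 normalised counts in wild-type EpiLCs, 943 and 204 in wild-type aggregates, 37.7 and 37.4 in TKO EpiLCs and 47.7 and 66.1 in TKO aggregates (interaction -5.53 ± 0.90 (SE), adjusted p = 0.00111). Irx3, a homeobox gene that patterns the neural tube, held 86.7 and 38.9 normalised counts in wild-type EpiLCs, 1574 and 1872 in wild-type aggregates, 40.7 and 34.1 in TKO EpiLCs and 101 and 112 in TKO aggregates. Irx3 rose in both genotypes, by 4.92 in wild-type and 1.49 in TKO cells (interaction -3.44 ± 0.48 (SE), adjusted p = 0.000322). Lhx5, a forebrain LIM homeobox gene, was at 82.9 and 43.5 in wild-type aggregates and at most 8.93 in the other libraries (adjusted p = 0.000713). Pax6 rose in both genotypes, from 8.03 and 16.1 to 262 and 144 and from 7.94 and 8.8 to 64.3 and 43.3, and its interaction of -1.29 ± 0.81 (SE) did not pass (adjusted p = 0.338). The remaining negative calls were Irx5 and Sox11.

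The other genes among the 10 lowest interactions rose in wild-type cells. Irx2, a relative of Irx3, held 3.21 and 8.89 normalised counts in wild-type EpiLCs, 618 and 196 in wild-type aggregates, 51.6 and 29.7 in TKO EpiLCs and 58.1 and 74.5 in TKO aggregates (interaction -5.16 ± 0.92 (SE), adjusted p = 0.00198). Rgma, a repulsive guidance molecule and BMP co-receptor, held 24.1 and 24.5 normalised counts in wild-type EpiLCs, 1593 and 1488 in wild-type aggregates, 50.6 and 36.3 in TKO EpiLCs and 104 and 76.9 in TKO aggregates (interaction -4.98 ± 0.69 (SE), adjusted p = 0.000303). Wild-type aggregates were highest in both. Eml1, a microtubule-binding protein of neural progenitors, went from 53 and 82.3 to 1503 and 1066 in wild-type cells and from 156 and 142 to 92.4 and 129.8 in TKO cells (interaction -4.68). Fhdc1, a formin, went from 12.9 and 22.2 to 529 and 544 and from 50.6 and 52.8 to 56 and 48.1 (interaction -4.88). Lrrc4b, a synaptic adhesion molecule, rose from 22.5 and 17.8 to 256 and 162 in wild-type cells and fell from 66.5 and 58.3 to 27 and 14.4 in TKO cells (interaction -5.04). Fam181b (-4.91) and the secreted factor Ndnf (-4.84) reached 386 and 174 and 230 and 192 in wild-type aggregates, against 8.3 and 27.6 and 35.3 and 37.2 in TKO aggregates. These calls, and those of Sox1, Sox21 and Crabp1, held in all 8 fits that left out 1 library.

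Proneural and neuronal genes gave fewer calls. Of 17 proneural and Notch genes, 2 had a negative interaction (background 6.19%), Hes3 and Lfng, and of 12 neuronal genes, 3 did, Dcx, Map2 and Stmn2. None had a positive one. In wild-type cells 9 of the 12 neuronal genes rose (background 18.6%), and in TKO cells 3 did (background 10.1%). With 1 library left out, between 0 and 1 of the proneural and between 0 and 5 of the neuronal genes were negative, so these counts rest on single libraries. Hes3 lost its call in each of the 8 fits, Map2 and Dcx in 6, Lfng in 5 and Stmn2 in 3. Of 12 neural crest genes, 1 passed, Tfap2a, a relative of Tfap2c, and it was positive (background 6.08%).

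Of 16 retinoic acid genes, 9 rose in wild-type (background 18.6%) and 3 in TKO cells (background 10.1%), with median changes of 1.87 and 0.35. In the interaction 4 were negative (background 6.19%) and 1 positive (background 6.08%). Crabp1 and Crabp2, binding proteins that carry retinoic acid in the cell, led the list. Crabp1 held 132 and 148 normalised counts in wild-type EpiLCs, 6774 and 2049.5 in wild-type aggregates, 102 and 59.4 in TKO EpiLCs and 46.7 and 81.7 in TKO aggregates (interaction -5.36 ± 0.61 (SE), adjusted p = 7.25e-05). Crabp2 held 387 and 299.6 normalised counts in wild-type EpiLCs, 2512 and 1684 in wild-type aggregates, 251 and 153 in TKO EpiLCs and 143 and 115 in TKO aggregates (interaction -3.32 ± 0.46 (SE), adjusted p = 0.000306). For both, the wild-type aggregates lay above all other libraries. Cyp26c1, an enzyme that breaks retinoic acid down in the hindbrain, had no count in wild-type EpiLCs and 1171 and 349 normalised counts in wild-type aggregates, a rise of at least 234.2-fold against a floor of 3 counts per library, and held 3.97 and 1.1 and 11.4 and 9.61 in TKO cells (adjusted p = 0.00706). Without TKO EpiLC replicate 1 this call was lost (adjusted p = 0.183). The receptor gene Rxra went from 188 and 249 to 976 and 768 in wild-type cells and from 517 and 384 to 488 and 603 in TKO cells (interaction -1.76 ± 0.29 (SE), adjusted p = 0.00123). Rarg was the positive call, with a change of -1.47 in wild-type cells and a TKO change of -0.55 that did not pass (interaction 0.92, adjusted p = 0.0396), and was lost in 7 of the 8 fits that left out 1 library, at adjusted p-values up to 0.162.

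The Nodal pathway keeps the epiblast pluripotent and is fed by Activin A in EpiLC medium. Of its 11 genes, 5 had a positive (background 6.08%) and 1 a negative interaction (background 6.19%), with a median of 1.75. In wild-type cells 6 fell (background 15.7%) while in TKO cells 1 did (background 8.52%). Tdgf1 (Cripto), the co-receptor of Nodal, held 3785 and 3296 normalised counts in wild-type EpiLCs, 164 and 66 in wild-type aggregates, 5779 and 9055 in TKO EpiLCs and 5531 and 5743 in TKO aggregates (interaction 4.50 ± 0.47 (SE), adjusted p = 3.6e-05). Lefty1, a secreted inhibitor and target of Nodal, held 7281 and 3953 normalised counts in wild-type EpiLCs, 615 and 235 in wild-type aggregates, 2653 and 2284 in TKO EpiLCs and 2800.1 and 2479.8 in TKO aggregates (interaction 3.77 ± 0.57 (SE), adjusted p = 0.000593). Gdf3, a ligand of the same co-receptor, held 718 and 548 normalised counts in wild-type EpiLCs, 99.4 and 53.6 in wild-type aggregates, 761 and 456 in TKO EpiLCs and 824 and 625 in TKO aggregates (interaction 3.25 ± 0.46 (SE), adjusted p = 0.000333). Wild-type aggregates were the lowest libraries for these 3 genes, and the TKO changes of -0.41, 0.09 and 0.24 did not pass. The negative call was Furin, a convertase that cleaves the Nodal precursor, which rose in wild-type cells from 246 and 304 to 884 and 872 and was already at 979 and 838 in TKO EpiLCs (interaction -1.47 ± 0.22 (SE), adjusted p = 0.000474).

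BMP and Fgf genes had calls in both directions. Of 14 BMP genes, 3 were positive and 2 negative, against 6.08% and 6.19% of all genes. Bmp4, the ligand that is added to induce PGCs and was absent from this medium, held 40.2 and 41.1 normalised counts in wild-type EpiLCs, 22.4 and 12.4 in wild-type aggregates, 65.5 and 103 in TKO EpiLCs and 353 and 538 in TKO aggregates. It rose in TKO cells by 2.39 and had a change of -1.20 in wild-type cells that did not pass (interaction 3.59 ± 0.60 (SE), adjusted p = 0.00127). Smad7, an inhibitory Smad, held 2087 and 1807 normalised counts in wild-type EpiLCs, 328 and 174 in wild-type aggregates, 1689.5 and 2466 in TKO EpiLCs and 2522 and 2449.8 in TKO aggregates, low only in wild-type aggregates (interaction 3.16 ± 0.36 (SE), adjusted p = 7.4e-05). The BMP antagonist Noggin (Nog) was positive (3.71, adjusted p = 0.0222), while Chordin (Chrd, -2.08, adjusted p = 0.0169) and Bmp7 (-1.64, adjusted p = 0.0332) were negative, and these 3 calls were lost in 4, 3 and 5 of the 8 fits that left out 1 library, at adjusted p-values up to 0.0981, 0.0787 and 0.135. No BMP gene was negative without wild-type EpiLC replicate 1, wild-type day 2 replicate 1 or TKO day 2 replicate 2.

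Of 18 Fgf and Erk genes, 3 were positive and 1 negative (backgrounds 6.08% and 6.19%), with a median of -0.25. Fgf17 went from 77.1 and 75 to 31.2 and 21.8 in wild-type cells and from 74.4 and 79.2 to 336 and 243 in TKO cells (interaction 3.38 ± 0.49 (SE), adjusted p = 0.00041), and Fgf4 is given above. Fgfr1, the main Fgf receptor of the epiblast, rose in wild-type cells from 1827 and 1818 to 3919 and 5024 and was at 2370 and 2219 and 2027 and 2178 in TKO cells (interaction -1.49 ± 0.23 (SE), adjusted p = 0.000767). Fgfr4 held 22.5 and 15.6 in wild-type EpiLCs, 0.97 and 2.33 in wild-type aggregates and between 81 and 123 in TKO libraries (interaction adjusted p = 0.0115), and without wild-type day 2 replicate 1 its call was lost (adjusted p = 0.0667).

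Among 16 genes of DNA methylation, 2 were positive (background 6.08%) and none negative (background 6.19%). Dnmt3l, the cofactor of the de novo methyltransferases, held 2938 and 1534 normalised counts in wild-type EpiLCs, 47.8 and 30.3 in wild-type aggregates, 3145 and 2754 in TKO EpiLCs and 734 and 656 in TKO aggregates. It fell in both genotypes (wild-type -5.79, TKO -2.10), so that TKO aggregates kept more (interaction 3.70 ± 0.57 (SE), adjusted p = 0.000713). Zfp57, which keeps methylation at imprinted regions, was the other (interaction 1.87, adjusted p = 0.0275), with 431 and 323 in wild-type and 3233 and 2849.9 in TKO aggregates, and this call was lost in 6 of the 8 fits that left out 1 library (adjusted p up to 0.14).

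Cholesterol synthesis genes fell in both genotypes. Of 15, 10 fell in wild-type (background 15.7%) and 14 in TKO cells (background 8.52%), with median changes of -0.93 and -1.88. All 15 interactions were below 0, with a median of -0.75, and 4 passed (background 6.19%). Cyp51, the lanosterol demethylase, held 2530.2 and 2584 normalised counts in wild-type EpiLCs, 1667 and 2142 in wild-type aggregates, 3133 and 3859 in TKO EpiLCs and 918 and 860.3 in TKO aggregates (interaction -1.61 ± 0.25 (SE), adjusted p = 0.000662). Msmo1, the next demethylase of the pathway, held 2228 and 2019 normalised counts in wild-type EpiLCs, 917 and 1227 in wild-type aggregates, 2167 and 2192 in TKO EpiLCs and 479.5 and 378 in TKO aggregates (interaction -1.42 ± 0.27 (SE), adjusted p = 0.00281). TKO aggregates were the lowest libraries for both. Dhcr7 (interaction -1.34, adjusted p = 0.0121) and the sterol sensor Insig1 (-1.08, adjusted p = 0.0124) passed too, and each lost its call in 3 of the 8 fits that left out 1 library, at adjusted p-values up to 0.0706 and 0.072. The number that passed was 2 without wild-type day 2 replicate 2 or without TKO day 2 replicate 2.

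**Figure D5:**
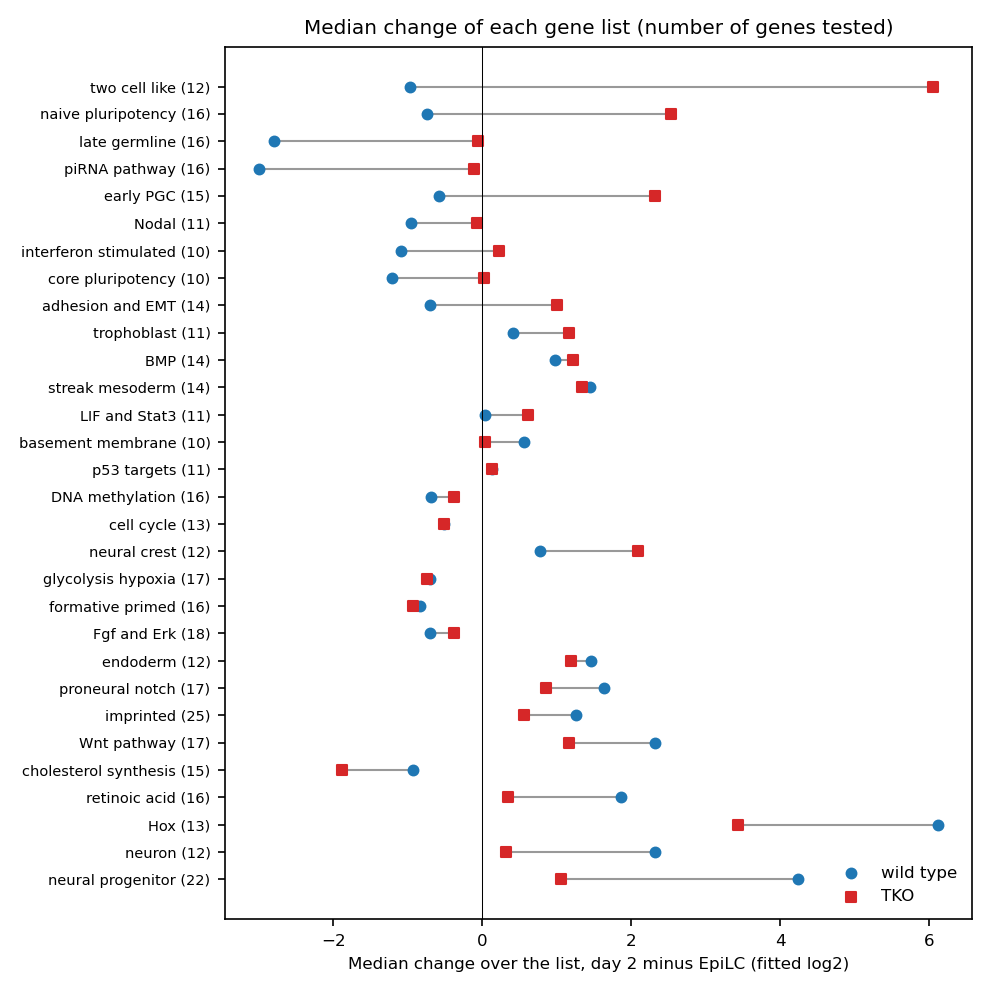
Median fitted log2 change from EpiLCs to day 2 over each gene list in wild-type (blue circles) and TKO cells (red squares), with the number of genes tested, ordered by the median interaction. The medians lie apart for two-cell-like (-0.97 and 6.05), naive (-0.74 and 2.53), late germline, piRNA and neural progenitor genes, and meet for p53 target (0.13 in each) and cell cycle genes (-0.51 in each). Of the 12 two-cell-like genes, 11 had a group at 3 counts or fewer in both libraries, so the size of these 2 medians is uncertain.

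Calls in the lists for other fates are to be read against the 6.08% of all genes that were positive and the 6.19% that were negative. None of 14 primitive streak and mesoderm genes passed in edgeR's test on all 18 libraries or with DESeq2, 1 was negative in the model of the 8 libraries only and 1 without a filter on low counts, 0 positive and 1 negative had an unadjusted p below 0.05, and the median was 0.16, or -0.20 with genes without counts in a group at their bound. Of 12 endoderm genes 2 were negative, Sox17 and Gata6, both below 30 normalised counts in every library, and Gata6 (adjusted p = 0.0497) lost its call in 7 of the 8 fits that left out 1 library, at adjusted p-values up to 0.278. Of 11 trophoblast genes 3 were positive (Tead4, Ascl2 and Tfap2a) and 1 negative (Krt19), and without wild-type EpiLC replicate 2 only Tfap2a and Krt19 passed. Among 13 Hox and Cdx genes, 8 rose in wild-type (background 18.6%) and 9 in TKO cells (background 10.1%), and 11 of the 13 had 3 counts or fewer in some group. The summed level of all listed Hox and Cdx genes was 2122 and 1370 normalised counts in wild-type aggregates and 500 and 441 in TKO aggregates.

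The same shares of all genes apply to the next lists. Of 17 Wnt genes 1 was positive (Notum) and 2 negative (Axin2 and Nkd1), with 0 to 2 negative when 1 library was left out. Of 11 LIF and Stat3 genes 4 were positive (Klf4, Tfcp2l1, Pim1 and Bcl3) and 1 negative (Jak1), and no LIF had been added to these aggregates. Of 14 adhesion genes 3 were positive, among them the epithelial splicing factors Esrp1 and Esrp2 with the cadherin Cdh3, and 2 negative, the mesenchymal repressors Zeb1 and Zeb2. Without wild-type EpiLC replicate 2, TKO EpiLC replicate 1 or TKO day 2 replicate 1 these counts were 1 and 0, and Esrp2 alone held in all 8 such fits. Of 10 basement membrane genes 2 were positive (Nid1 and Nid2) and 3 negative (Col4a1, Col4a2 and Sparc). None was negative without wild-type EpiLC replicate 1, wild-type day 2 replicate 1, TKO EpiLC replicate 1 or either TKO day 2 library, and Nid2 alone held in all 8 fits. Of 25 imprinted genes 1 was positive (Phlda2) and 2 negative (Sgce and Ndn). The calls of Jak1 and Phlda2 were lost in each of the 8 fits that left out 1 library, and those of Bcl3 in 4 and Klf4 in 1, so that 2 LIF genes were positive without wild-type EpiLC replicate 1.

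Lists of general cell functions had 3 calls or fewer each. Of 17 glycolysis and hypoxia genes 1 passed (Slc2a1, negative, background 6.19%), and it lost its call in 7 of the 8 fits that left out 1 library (adjusted p up to 0.271). Of 13 cell cycle genes 3 passed, Cdkn2a upward (background 6.08%) and Ccnd2 and Cdkn1b downward, and Ccnd2 lost its call in 6 of the 8 fits (adjusted p up to 0.127). None of 11 p53 targets passed in edgeR's test, against 1 with DESeq2 and 1 positive and 1 negative at an unadjusted p below 0.05, and of 10 interferon-stimulated genes 2 were positive (Samd9l and Oasl2), of which Samd9l lost its call in 5 of the 8 fits. Of 4 genes of the Y chromosome 1 passed. Ddx3y, an RNA helicase gene, held 789 and 972 normalised counts in wild-type EpiLCs, 422 and 571 in wild-type aggregates, 9.92 and 20.9 in TKO EpiLCs and 59.2 and 112 in TKO aggregates (interaction 3.23 ± 0.57 (SE), adjusted p = 0.00186). The Y-linked genes Uty (414 and 480.3 in wild-type and 377 and 465 in TKO EpiLCs) and Eif2s3y (932 and 1196 and 684 and 908) did not pass in the interaction, with adjusted p-values of 0.486 and 0.102. Kdm5d was at most 28.7 in every library (adjusted p = 0.489).

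Some genes changed in opposite directions. By calls at an adjusted p below 0.05 in each genotype, 101 genes fell in wild-type and rose in TKO cells, and 66 rose in wild-type and fell in TKO cells. The first 5 of the former by adjusted p were Dppa2, given above, Ooep, Zfp936, Zfp296 and Usp17le. Ooep, an oocyte protein of the subcortical maternal complex, held 366 and 275 normalised counts in wild-type EpiLCs, 12.7 and 12.4 in wild-type aggregates, 360.1 and 676 in TKO EpiLCs and 1122 and 978 in TKO aggregates (interaction 5.61 ± 0.45 (SE), adjusted p = 4.5e-06). Zfp296, a zinc finger protein of ESCs, held 215 and 198 normalised counts in wild-type EpiLCs, 38 and 45.1 in wild-type aggregates, 222 and 181 in TKO EpiLCs and 747 and 650 in TKO aggregates (interaction 4.03 ± 0.33 (SE), adjusted p = 4.5e-06). Zfp936 went from 384 and 320.2 to 35.1 and 25.6 in wild-type and from 348 and 436 to 841 and 574 in TKO cells (interaction 4.33). Usp17le, a copy of the Usp17l deubiquitinase cluster, was at 108 and 132 in TKO aggregates and at most 13.3 elsewhere (adjusted p = 4.5e-06).

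The first 5 of the latter had wild-type gains of moderate size. Ddr1, a collagen receptor, held 1102 and 1319.7 normalised counts in wild-type EpiLCs, 2441 and 2795 in wild-type aggregates, 1711 and 1029 in TKO EpiLCs and 566 and 652 in TKO aggregates (interaction -2.34 ± 0.29 (SE), adjusted p = 0.000108). Dtx4, a Deltex ubiquitin ligase, held 514 and 589 normalised counts in wild-type EpiLCs, 2454 and 1858 in wild-type aggregates, 382 and 411 in TKO EpiLCs and 211 and 228 in TKO aggregates (interaction -2.88 ± 0.33 (SE), adjusted p = 7.25e-05). In both, the wild-type aggregates were the highest and the TKO aggregates the lowest libraries. Megf6 went from 321 and 339.6 to 894 and 944 in wild-type and from 386 and 285 to 136 and 106 in TKO cells (interaction -3.003). Peli2 (-2.63) went from 169 and 219.6 to 707 and 688 and from 279 and 225 to 150.5 and 151. Armcx2 (-2.09) went from 904 and 1050.1 to 2645 and 2579 and from 2009 and 1591 to 1051 and 1309.6.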

How the data were processed

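RNA was depleted of ribosomal RNA and sequenced as stranded libraries. Reads were trimmed by the authors with Trim Galore 0.5.0 and cutadapt 1.16, aligned to mm10 with STAR 2.7.1a and counted per gene with Subread 1.5.2 on refGene exons without the strand option, and the deposited values are raw fragment counts with no normalisation. Antisense partners can therefore not be told apart. The 33 comment lines of the table were dropped, and 3187 of 25239 genes had no count in any library.

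Genes were filtered with edgeR's filterByExpr by group, which left 16582, and scaled with TMM factors. One quasi-likelihood model of 9 group means was fitted to all 18 libraries (edgeR 4.0.16, limma 3.58.1, R 4.3.3), so that the spread is shared by all groups. The interaction and both changes were tested as contrasts, with p-values adjusted over all genes, and calls beyond a log2 of 2 follow the limits of the study. Standard errors were approximated as the absolute log2 value over √F. Levels are counts over DESeq2 1.42.0 size factors. With 2 libraries per group no exact test of a single gene can reach 0.05. Where a group had 3 counts or fewer in both libraries, no fitted log2 is given in the report. The steps were tested on simulated data.

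Groups were taken from the labels, and the study calls the libraries biological replicates. Same-numbered libraries did not deviate together (correlations of the differences between replicates 1 and 2 from -0.06 to 0.06), so the numbers were not treated as pairs. The members and the 32 gene lists were chosen with earlier results of these data known. Genes named were the 10 highest and 10 lowest interactions with an adjusted p below 0.05, a mean of at least 50 normalised counts, no group at 3 counts or fewer and no overlap of library differences, the 3 Tet genes, up to 4 members of each list by adjusted p and any that opposed it, and 5 genes for each order of opposite change. Genes named beside these, among them Nanog, Prdm1, Prdm14, Fgf5, Dnmt3b, T, Pax6 and Pou5f1, were chosen after their values were seen. The other 10 libraries were used only for the spread of the model. Alternatives were DESeq2, RLE factors, library size alone, no Rn45s, no filter or a mean CPM of 1, the 8 libraries only, a replicate block, a log2 beyond 1, an adjusted p below 0.01, TMM-scaled CPM for levels, and leaving out each library. The interaction calls of the Hox and Cdx list are not reported here.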

Additional observations from a re-analysis of the deposited data

Results flagged for a closer look

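The change from EpiLCs to day 2 differed between the genotypes by the test of the interaction itself for 689 genes with a positive and 372 with a negative value beyond a log2 of 2. It also differed for the genes named in the report that follow with their interaction log2. No explanation was tested for any of them.

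Among positive values, those of Eif4a3l1 (7.81), Calcoco2 (6.77), Nphs1 (6.61), Nr0b1 (6.22), Rhox5 (6.05), Aldoart2 (6.04), Morc1 (6.04) and Slc5a11 (6.04) led. Below these came Arl14epl (6.02), Dppa3 (6.01), Kirrel2 (5.96), Dppa2 (5.92), Ooep (5.61), Dppa5a (4.92), Fgf4 (4.62) and Zfp42 (4.603). Next in size were Tdgf1 (4.50), Sox15 (4.36), Zfp936 (4.33), Dazl (4.25), Dppa4 (4.24), Sohlh2 (4.11), Tdrd12 (4.03) and Zfp296 (4.03). A further group held Tex19.1 (3.96), Slc25a31 (3.85), Tfap2c (3.79), Lefty1 (3.77), Nog (3.71), Dnmt3l (3.70), Bmp4 (3.59) and Mael (3.42). Values between these and the smallest were those of Fgf17 (3.38), Prdm1 (3.31), Gdf3 (3.25), Ddx3y (3.23), Smad7 (3.16), Tcf15 (3.08), Piwil2 (2.7) and L1td1 (2.55). The smallest positive values were those of Tet1 (2.52), Grhl2 (2.48), Elf3 (2.35), Utf1 (2.32), Zfp57 (1.87) and Rarg (0.92).

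The most negative values were those of Sox1 (-7.40), Sox21 (-5.53), Crabp1 (-5.36), Irx2 (-5.16), Lrrc4b (-5.04), Rgma (-4.98), Fam181b (-4.91) and Fhdc1 (-4.88). These were followed by Ndnf (-4.84), Eml1 (-4.68), Irx3 (-3.44), Crabp2 (-3.32), Megf6 (-3.003), Car14 (-2.92), Dtx4 (-2.88) and Peli2 (-2.63). Negative values of moderate size were found for Ddr1 (-2.34), Armcx2 (-2.09), Chrd (-2.08), Sox3 (-1.87), Rxra (-1.76), Bmp7 (-1.64), Cyp51 (-1.61) and Fgfr1 (-1.49). The negative values nearest 0 were those of Furin (-1.47), Tdrkh (-1.46), Msmo1 (-1.42), Dhcr7 (-1.34) and Insig1 (-1.08).

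For genes with a group at 3 counts or fewer the adjusted p of the interaction (edgeR) is given in place of a log2, and it was positive or negative as the report states, for Taf7l (0.000107), Lhx5 (0.000713), Fgfr4 (0.0115), Cyp26c1 (0.00706), Zscan4d (0.000102), Zscan4a (0.000105), Zscan4f (0.000385) and Zscan4b (0.000981). The same holds for Usp17le (4.5e-06).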

How the results depend on the processing

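Of the 1061 interaction calls beyond 2, 1 changed sign in the model of the 8 libraries only, 1 did so without TKO EpiLC replicate 1, and none did under DESeq2, other factors, other filters, the replicate block or the other fits without 1 library. Between 947 and 1060 were called again under the 8 alternatives that kept all libraries compared, and between 691 and 885 when 1 library was left out. Leaving out 1 library gave 465 to 709 higher and 261 to 407 lower interactions, 889 to 1140 wild-type rises and 606 to 781 falls, and 476 to 783 TKO rises and 50 to 128 falls. An adjusted p below 0.01 left 385 higher and 209 lower interactions, 445 TKO rises and 58 TKO falls, by its own stricter limit. A log2 beyond 1 gave 940 higher and 926 lower interactions, a nearly even split, 2259 wild-type rises, 1529 wild-type falls, 1318 TKO rises and 618 TKO falls. Scaling by library size alone, which moves the median change of all genes by 0.57 in wild-type and 0.50 in TKO cells, gave 1942 wild-type and 1399 TKO rises and 36 TKO falls. It raised the share of rises from 59.28% to 78.85% in wild-type and from 89.09% to 97.49% in TKO cells, while the median interaction moved by -0.06. It gave 667 higher and 399 lower interactions.

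Same-numbered libraries did not pair, and a fit with the replicate block gave 694 higher and 364 lower interactions, 1104 and 763 wild-type and 792 and 94 TKO calls. Of 125 named genes that passed, 83 held their call in all 8 fits that left out 1 library and 35 lost it in 3 or more. Over those fits the interaction ran from -6.39 to 0.72 for Dcx and from -0.0196 to 1.01 for Nanog, both turning sign without TKO EpiLC replicate 1, and from -0.75 to 0.18 for Dnmt3b, which turned without wild-type day 2 replicate 2. Dcx had 2 counts in each wild-type EpiLC library, so its fitted values are uncertain and are not given. Fgf5 ran from -0.28 to 0.41 and T from -0.71 to 1.41. Fgf5 was also -0.0445 with library size alone, and T was 0.0769 with DESeq2, 0.0227 with RLE factors and 0.30 with the replicate block. Apart from Dcx none of these had passed, and the cause was not tested. Few counts in a group and 2 libraries per group limit the precision.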
